A study of Mus musculus with 12 samples.

Results

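Hedgehog signalling was followed here through 9 genes, Gli1, Gli2, Gli3, Ptch1, Smo, Sufu, Hhip, Boc and Cdon, each matched by its symbol to 1 of the 20614 genes in the expression table. The group was built around Gli3, which was chosen by its higher level in Cd38-deficient astrocytes with results of these data known. Its values are therefore a description and carry no test, whereas the other 8 genes were taken by name as the core of the same pathway. All values are in TPM, an estimate of abundance that is scaled for transcript length and library size, so that levels can be set side by side between genes.

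The libraries were made from astrocytes of the midbrain regions (striatum, thalamus and substantia nigra) of male mice aged 12 to 14 months, on a C57BL/6J background. There were 3 libraries from wild-type mice (Cd38+/+), 3 from heterozygotes (Cd38+/-) and 6 from homozygous knockouts (Cd38-/-), with no other allele named. Cd38, an enzyme that consumes NAD+, is disrupted in every cell of these animals and not only in astrocytes. Astrocytes were isolated on magnetic beads through the surface antigen ACSA-2, after endothelial cells, myelin and oligodendrocytes, and CD11b+ cells had been removed. Tissue of all genotypes was dissected in a solution with CNQX and D-AP5, which block glutamate receptors. Cd38 itself was measured at 105 to 149 TPM in Cd38+/+ libraries, at 90.4 to 90.8 TPM in Cd38+/- libraries and at 8.54 to 21.9 TPM in Cd38-/- libraries, in the order that the labels give. Astrocyte markers summed to 7637 to 10558 TPM in Cd38+/+, 12388 to 13110 TPM in Cd38+/- and 8389 to 11953 TPM in Cd38-/- libraries. Over all libraries, oligodendrocyte markers, at 1295 to 17799 TPM, and ependymal markers, at 2910 to 5997 TPM, were also present. Choroid plexus markers summed to 45.6 to 7157 TPM, endothelial markers to 309 to 1781 TPM, and those of mural cells or fibroblasts, microglia, oligodendrocyte precursors and neurons to at most 302, 138, 125 and 124 TPM. The Cd38+/+ libraries stood apart in the number of genes above 0 TPM, with 13160 to 13516 genes against 15920 to 17906 in the other 9 libraries. Read depth is unknown, because TPM values do not keep it.

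In the Hedgehog pathway a secreted ligand binds the receptor Patched (Ptch1), aided by the coreceptors Boc and Cdon, and releases the membrane protein Smoothened (Smo) from inhibition. Smoothened then acts through the primary cilium to free the Gli transcription factors from Sufu, with Gli1 and Gli2 acting mainly as activators and Gli3 mainly as a repressor. Gli1, Ptch1 and Hhip, a decoy that binds the ligand, are themselves targets of the pathway, and in the adult brain astrocytes are among the cells that respond to neuronal Sonic hedgehog.

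Gli3 (ENSMUSG00000021318) lies on the plus strand of GRCm38 at chr13:15463235-15730026, and Ptch1 (ENSMUSG00000021466) lies on the minus strand of the same chromosome at chr13:63508328-63573598. Their promoters are shown because Gli3 is the gene the group was built around and Ptch1 is the receptor whose gene responds to the Gli factors. Each runs from 250 bases before to 50 bases after the transcription start in RefSeq (GRCm38.p6), 5′ to 3′ on the strand of the gene, and capitals mark the 6 bases GACCAC, the core of the Gli binding sequence, or its reverse GTGGTC.
Gli3, chr13:15463473-15463772, plus strand: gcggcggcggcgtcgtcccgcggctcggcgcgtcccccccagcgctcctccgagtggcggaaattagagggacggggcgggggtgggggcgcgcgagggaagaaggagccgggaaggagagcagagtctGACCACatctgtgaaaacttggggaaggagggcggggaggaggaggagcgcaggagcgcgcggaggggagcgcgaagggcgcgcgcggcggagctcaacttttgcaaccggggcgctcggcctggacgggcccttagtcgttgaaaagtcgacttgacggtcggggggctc
Ptch1, chr13:63565686-63565985, minus strand: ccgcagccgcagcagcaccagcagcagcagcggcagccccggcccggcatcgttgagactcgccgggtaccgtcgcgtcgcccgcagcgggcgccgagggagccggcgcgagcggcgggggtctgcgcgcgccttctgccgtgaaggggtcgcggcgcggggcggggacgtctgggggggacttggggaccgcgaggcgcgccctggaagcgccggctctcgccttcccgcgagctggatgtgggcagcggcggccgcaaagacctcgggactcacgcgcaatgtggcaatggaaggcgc
The Gli3 window was 71.0% G and C and held the core once, starting at base 130, while the Ptch1 window was 76.3% G and C and held none. The Ptch1 window lies inside the gene span given above and not at its 5′ end (63573598). Likewise the Cdon window (chr9:35451826-35452125) lies inside the span of its gene. Other starts of these genes were not searched, so the lack of a core holds for these windows only. Of the 7 members with an entry in the promoter table (all but Gli1 and Boc), Gli3 alone held the core in its window, against 11.6% of all 32851 promoters of the same length. With 7 windows, a count of 1 is near that share and is no result about Gli3 or the pathway. The full 9-base sequence TGGGTGGTC, or its reverse GACCACCCA, was in none of the 7 windows and in 0.253% of all promoters. These matches describe letters in a window, and binding was not measured.

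Among the receptors, Ptch1 had the highest mean of the 9 genes in each genotype. It was measured at 96.84, 72.58 and 78.76 TPM in Cd38+/+ replicates 1 to 3, at 136.86, 96.73 and 132.36 TPM in Cd38+/- replicates 1 to 3, and between 54.37 and 127.24 TPM, with a median of 89.7 TPM, in the 6 Cd38-/- samples. Cd38+/- libraries were the higher, but the lowest of them was just below the highest Cd38+/+ library, and the Cd38-/- libraries spanned the whole Cd38+/+ range. Differences were fitted by limma on log2(TPM + 1) across all genes with a mean above 5 TPM in at least 1 of the genotypes compared, and a gene was called at a q value under 0.05 and a change of at least 1.2-fold. The difference of Ptch1 was 0.11 ± 0.23 (SE; limma q = 0.458) in Cd38-/- against Cd38+/+ and 0.55 ± 0.21 (q = 0.209) in Cd38+/- against Cd38+/+. Neither was called, and the first turned negative under 4 alternative settings, among them another scaling of the libraries. As the samples are bulk RNA, fewer cells of a type and less RNA per cell cannot be told apart here or in any result that follows.

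Boc, a coreceptor that binds the ligand together with Ptch1 (ENSMUSG00000022687, chr16:44485049-44558897, minus strand), was measured at 35.45, 23.66 and 13.35 TPM in Cd38+/+ libraries. The Cd38+/- libraries were at 43.78, 34.20 and 43.22 TPM, and the Cd38-/- libraries ran from 25.53 to 44.04 TPM with a median of 30.4 TPM. All 9 libraries lacking 1 or both copies of Cd38 lay above the mean of the Cd38+/+ libraries (24.2 ± 11.1 TPM, SD, n = 3), while the highest Cd38+/+ library lay inside both other groups. The differences from Cd38+/+ were 0.81 ± 0.36 in Cd38+/- (q = 0.235) and 0.50 ± 0.29 in Cd38-/- (SE; limma q = 0.177), and neither was called. Single control libraries decided the second, which was 0.82 and called without Cd38+/+ replicate 1 (q = 0.0464), where 15.5% of all genes tested were called, and 0.14 without Cd38+/+ replicate 3 (q = 0.317).

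Cdon, the coreceptor related to Boc (ENSMUSG00000038119, chr9:35421128-35507652, plus strand), was close to the limit of detection. It was measured at 0.20, 0.10 and 0.38 TPM in Cd38+/+ libraries, at 1.10, 0.49 and 0.87 TPM in Cd38+/- libraries, and between 0.39 and 2.16 TPM in Cd38-/- libraries (median 0.945 TPM). Every library of both other genotypes was above every Cd38+/+ library, but the lowest Cd38-/- library, at 0.39 TPM, was barely so. Cdon did not pass the level filter in any comparison. Of the genes that passed it, 11.8% did not overlap in Cd38-/- against Cd38+/+ and 22.5% in Cd38+/- against Cd38+/+. The share among genes as low as Cdon is not given here, so nothing is read from its separation. Without that filter its difference was 0.70 ± 0.25 in Cd38-/- (SE; limma q = 0.0643) and 0.56 ± 0.16 in Cd38+/- (q = 0.0939), so that it was not called there either. Its higher values went with the larger number of genes above 0 TPM in those libraries, and the part of that number in the result was not tested.

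Hhip, the decoy receptor (ENSMUSG00000064325, chr8:79965851-80058006, minus strand), was also below the filter in all comparisons. It was measured at 2.06, 3.86 and 0.61 TPM in Cd38+/+ libraries and at 3.18, 3.05 and 3.16 TPM in Cd38+/- libraries. The Cd38-/- libraries ran from 1.99 to 4.24 TPM with a median of 2.60 TPM, so that all groups overlapped. Without the filter, its difference from Cd38+/+ was 0.36 ± 0.36 in Cd38-/- (SE; limma q = 0.276) and 0.52 ± 0.48 in Cd38+/- (q = 0.375).

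Smo, which carries the signal across the membrane (ENSMUSG00000001761, chr6:29735503-29761365, plus strand), had 43.38, 45.84 and 92.75 TPM in Cd38+/+ replicates 1 to 3. The Cd38+/- libraries were at 85.34, 76.05 and 102.97 TPM, and the Cd38-/- libraries were close together, from 62.43 to 78.98 TPM (median 74.1 TPM). Cd38+/+ replicate 3 was higher than 8 of the 9 other libraries, whereas the other two Cd38+/+ libraries were lower than all of them. The differences from Cd38+/+ were 0.61 ± 0.30 in Cd38+/- (q = 0.255) and 0.35 ± 0.22 in Cd38-/- (SE; limma q = 0.196). Without Cd38+/+ replicate 3 the second was 0.70 and called (q = 0.00566), at a setting where 26.5% of all genes tested were called. Without Cd38+/+ replicate 1 or 2 it was 0.16 (q = 0.348) or 0.20 (q = 0.315).

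Sufu, the protein that holds the Gli factors inactive in the cytoplasm (ENSMUSG00000025231, chr19:46396896-46488804, plus strand), ranged more widely among the Cd38+/+ libraries than between genotypes. It was at 23.13, 10.40 and 36.10 TPM in Cd38+/+ libraries, at 28.41, 19.15 and 23.67 TPM in Cd38+/- libraries, and between 14.31 and 23.95 TPM (median 19.1 TPM) in Cd38-/- libraries. All the Cd38+/- and Cd38-/- libraries lay inside the Cd38+/+ range. The difference from Cd38+/+ was -0.10 ± 0.33 in Cd38-/- (SE; limma q = 0.497) and 0.17 ± 0.44 in Cd38+/- (q = 0.552), and both changed sign with the Cd38+/+ library left out. The first was 0.28 without replicate 3 and -0.57 without replicate 2, and the second was 0.56 and -0.29.

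The Gli factors at the end of the pathway differed from each other in their pattern. Gli3 stood at 2.94, 2.46 and 11.08 TPM in Cd38+/+ replicates 1 to 3. In the Cd38+/- libraries it was at 26.99, 16.16 and 19.96 TPM, and the Cd38-/- libraries ran from 9.06 to 23.31 TPM with a median of 17.5 TPM. All 3 Cd38+/- libraries were above all Cd38+/+ libraries, and 5 of the 6 Cd38-/- libraries were, the exception being Cd38-/- replicate 3, at 9.06 TPM, which was below Cd38+/+ replicate 3.

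The mean of Gli3 was 5.49 ± 4.84 TPM in Cd38+/+ (SD, n = 3), 21.0 ± 5.49 TPM in Cd38+/- (n = 3) and 16.9 ± 5.42 TPM in Cd38-/- (n = 6). On the log2(TPM + 1) scale Gli3 was 1.98 ± 0.56 (SE) higher in Cd38+/- and 1.65 ± 0.43 higher in Cd38-/- than in Cd38+/+, or 3.94-fold and 3.13-fold. Both comparisons use the same 3 Cd38+/+ libraries, so that they are not separate evidence. Between the mutant genotypes Gli3 was 0.33 ± 0.27 lower in Cd38-/- than in Cd38+/-, with overlapping libraries, which is within the spread of the libraries. The 2 low Cd38+/+ values set much of the difference, which was 1.32 in Cd38-/- without replicate 2 and 2.22 without replicate 3.

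Gli1, the activator whose transcript is the usual readout of pathway activity (ENSMUSG00000025407, chr10:127329882-127341974, minus strand), did not follow Gli3. It was measured at 25.86, 53.15 and 14.97 TPM in Cd38+/+ libraries, at 32.76, 29.07 and 25.72 TPM in Cd38+/- libraries, and between 12.09 and 27.94 TPM (median 20.7 TPM) in Cd38-/- libraries. Its difference was -0.50 ± 0.37 in Cd38-/- against Cd38+/+ (SE; 95% confidence interval -1.30 to 0.29, limma q = 0.240) and 0.07 ± 0.43 in Cd38+/- against Cd38+/+ (q = 0.597). Neither passed, and the interval leaves room for a fall of over 1 on the log2 scale. Without Cd38+/+ replicate 3, the library with the least Gli1, the first was -0.92 and called (q = 0.0416), where 26.5% of all genes tested were called. Without Cd38+/+ replicate 2, the library with the most Gli1, it was -0.043 (q = 0.484).

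Gli2, the main activator at the start of a response (ENSMUSG00000048402, chr1:118834132-119053619, minus strand), was the least abundant of the 3 factors in every library but Cd38+/+ replicate 2. It was at 2.76, 21.13 and 4.73 TPM in Cd38+/+ libraries, at 12.00, 9.21 and 11.10 TPM in Cd38+/- libraries, and between 4.91 and 10.94 TPM (median 7.28 TPM) in Cd38-/- libraries. Cd38+/+ replicate 2 held the highest Gli2 and Gli1 of all libraries and the lowest Gli3. The difference from Cd38+/+ was 0.15 ± 0.49 in Cd38-/- (SE; limma q = 0.501) and 0.58 ± 0.66 in Cd38+/- (q = 0.443), and the sign of the first turned with the choice of normalization. It was 0.90 without Cd38+/+ replicate 2 (q = 0.0598) and -0.38 without replicate 1 (q = 0.323).

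**Figure D1:**
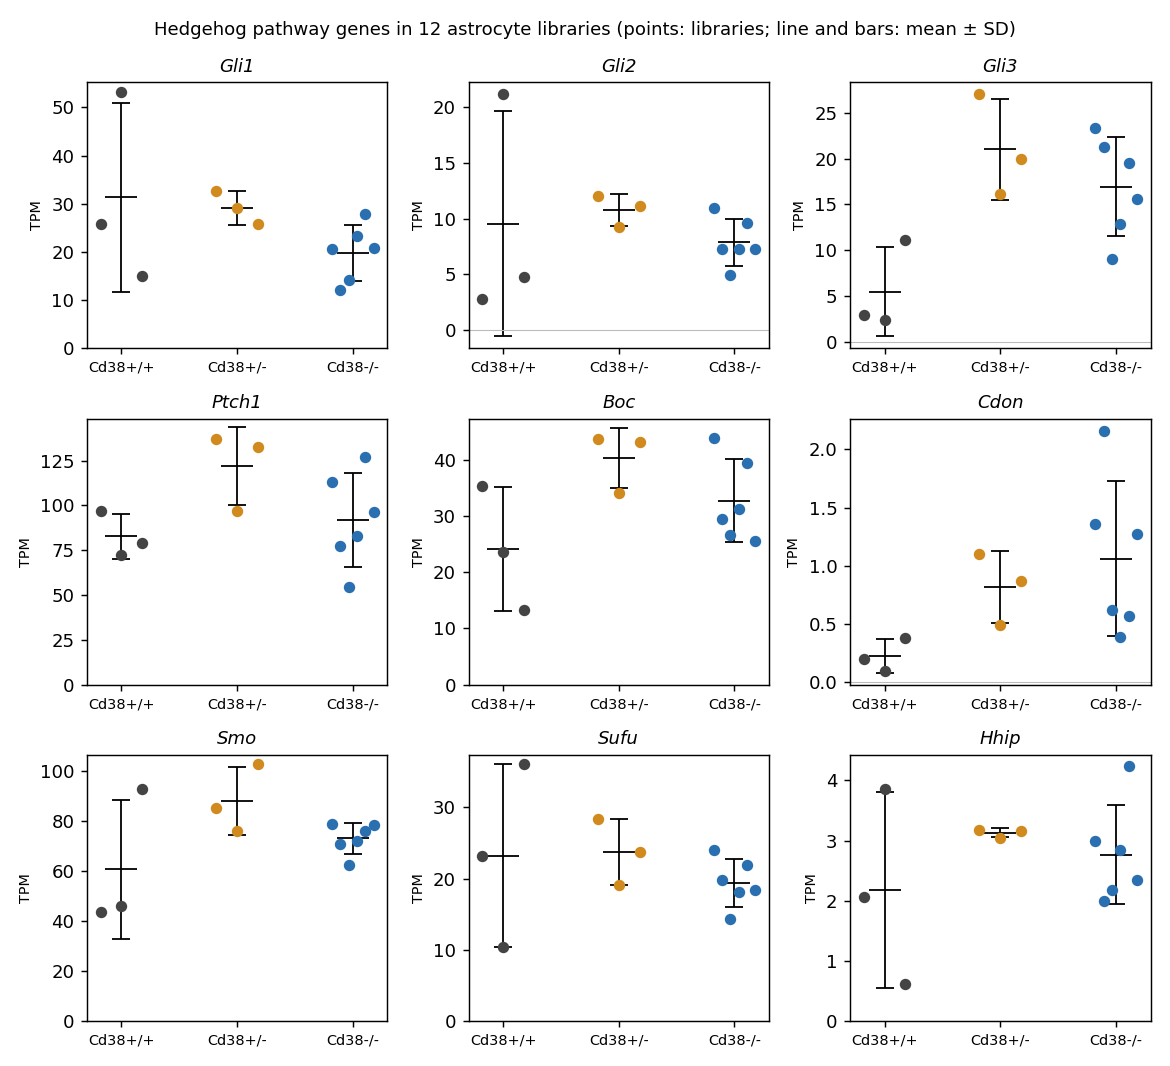
TPM of the 9 genes (vertical axes, 1 panel for each gene with its own scale) in 3 Cd38+/+, 3 Cd38+/- and 6 Cd38-/- libraries, where points are libraries and the line and bars are the mean ± SD. For Gli3, all Cd38+/- libraries and 5 of 6 Cd38-/- libraries lie above the highest Cd38+/+ library at 11.08 TPM, while the Gli1, Gli2 and Sufu panels overlap throughout.

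The make-up of the Gli pool therefore varied among the libraries. Gli3 was 9.32%, 3.21% and 36% of the summed TPM of Gli1, Gli2 and Gli3 in Cd38+/+ replicates 1 to 3, 29.7 to 37.6% in the Cd38+/- libraries and 29.7 to 52.4% in the Cd38-/- libraries (median 34.9%). Cd38+/+ replicate 3 had a share like those of the mutant libraries, although its total of the 3 transcripts was low. That total was 30.8 to 76.7 TPM in Cd38+/+, 54.4 to 71.8 TPM in Cd38+/- and 28.2 to 57.1 TPM in Cd38-/- libraries, so that the summed level overlapped between all genotypes.

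**Figure D2:**
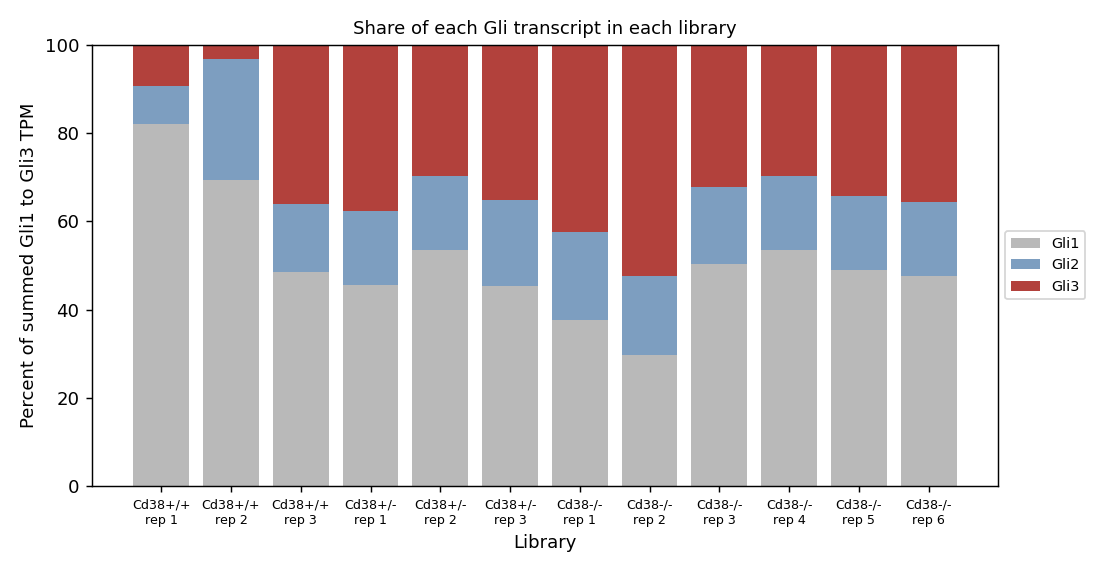
Share of Gli1, Gli2 and Gli3 in the summed TPM of the 3 transcripts (vertical axis, percent) in each of the 12 libraries (horizontal axis). Gli3 holds 3.21% and 9.32% in Cd38+/+ replicates 2 and 1, and 29.7% or more in the other 10 libraries, Cd38+/+ replicate 3 included.

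Read as a group, none of the 6 members besides Gli3 that passed the level filter was called in any of the 3 comparisons by limma, with 0, 1 and 2 of them at an unadjusted p under 0.05 in Cd38-/- against Cd38+/+, Cd38+/- against Cd38+/+ and Cd38-/- against Cd38+/-. Over all genes tested, 8.28% were called in the first comparison (970 of 11722), 0% in the second (0 of 11763, with 1586 at an unadjusted p under 0.05) and 0.0346% in the third (4 of 11563). At an unadjusted p under 0.05 stood 23.6%, 13.5% and 11.2% of all genes tested in the 3 comparisons. With 6 members, a count of 0 called is near each of these background shares and is no result about the pathway. The median difference of the 6 genes was 0.13, 0.57 and -0.37 in the 3 comparisons, where the median of all genes tested was 0.15, 0.18 and -0.02. All 6 were higher in Cd38+/- than in Cd38+/+, as were 64.4% of all genes tested, though Gli1 and Sufu turned under other scalings. In Cd38-/- against Cd38+/-, which shares the Cd38+/- libraries, all 6 were lower, as were 54.6% of all genes tested, with Gli1 at -0.58 ± 0.23 (SE; limma q = 0.288) and Ptch1 at -0.44 ± 0.23 (q = 0.361). The summed TPM of the astrocyte markers moved the same way, with all Cd38+/- libraries above those of both other genotypes. Taken singly, only Aqp4 and Slc1a2 had all Cd38+/- libraries above those of both other genotypes. Gja1, Slc1a3 and Gfap overlapped with Cd38-/- libraries, and Atp1b2 overlapped with Cd38+/+ libraries. Gjb6 and Aldh1l1 overlapped with both, as did Sox9, with means of 372 TPM in Cd38+/+, 325 TPM in Cd38+/- and 296 TPM in Cd38-/-. The part of the markers in these differences was not tested.

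Whether the libraries of the genotypes overlapped was also counted. Of the 7 members that passed the filter, none was separated between genotypes in Cd38-/- against Cd38+/+ or Cd38-/- against Cd38+/-, where 11.8% and 5.73% of all genes tested did not overlap. In Cd38+/- against Cd38+/+ the one separated member was Gli3, where 22.5% of all genes tested were separated, and nothing is read from it because Gli3 was chosen by this difference.

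**Figure D3:**
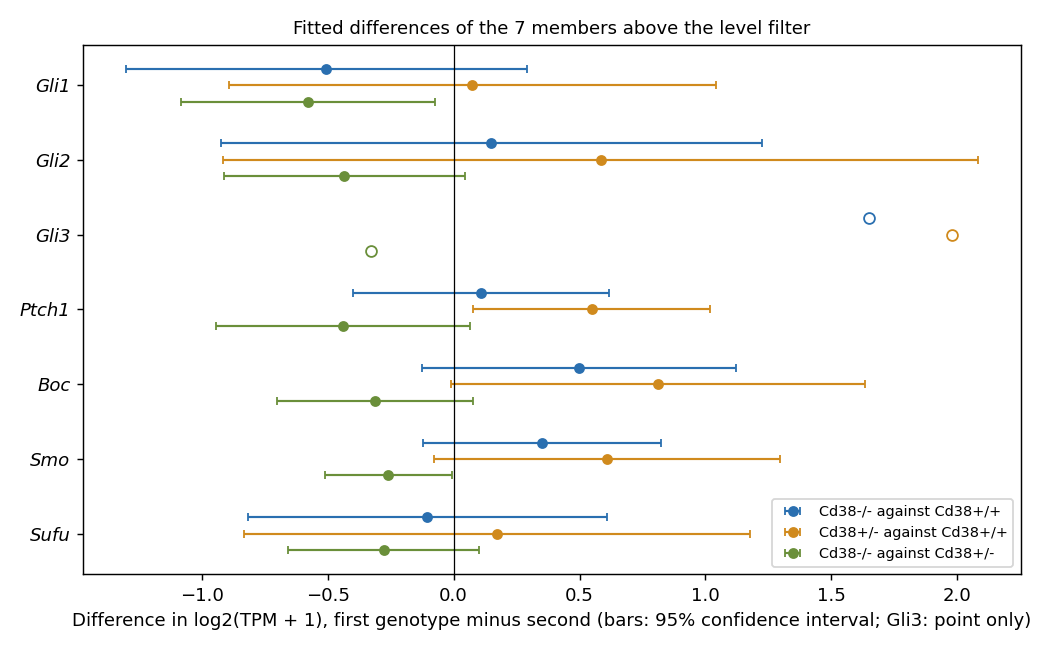
Difference in log2(TPM + 1) (horizontal axis, first genotype minus second) for the 7 members above the level filter, in 3 comparisons shown by colour, with 95% confidence intervals as bars for all but Gli3, which is given as open points without a test. Gli3 is at 1.65 and 1.98 against Cd38+/+, where the points of the other members lie between -0.50 and 0.81.

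For most members the spread was largest among the Cd38+/+ libraries, but Ptch1 and Cdon were least spread there and most spread in Cd38-/-. No spread over all genes is given here for comparison. The SD of log2(TPM + 1) over libraries had a median of 0.80 over the 9 genes in Cd38+/+, against 0.22 in Cd38+/- and 0.35 in Cd38-/-, and was largest for Gli2 (1.34) and Gli3 (0.99) in Cd38+/+. The Cd38+/+ libraries also disagreed on which was highest, with replicate 1 leading for Ptch1 and Boc, replicate 2 for Gli1, Gli2 and Hhip, and replicate 3 for Gli3, Smo, Sufu and Cdon. In the Cd38+/- group replicate 1 was the highest for 8 of the 9 genes and replicate 2 the lowest for 8. Cd38-/- replicate 3 was the lowest of its group for 5 genes, Gli2, Gli3, Ptch1, Smo and Sufu. The median difference of all genes from Cd38+/+ shifted with the same libraries. In Cd38+/- it was 0.18, but 0.12 without replicate 1 and 0.24 without replicate 2. In Cd38-/- it was 0.15, but 0.18 without replicate 3. It was also 0.18 without Cd38-/- replicate 4, which was the lowest of its group for only 1 gene. The order of the libraries is therefore not read as a trait of the members. Oligodendrocyte markers were the highest of their group in both libraries where most members were lowest. They were at 11008 TPM in Cd38+/- replicate 2 and 17799 TPM in Cd38-/- replicate 3. They were the lowest of all libraries in Cd38+/+ replicate 3, at 1295 TPM. The part of oligodendrocyte RNA in the levels of the members was not tested.

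The genes whose profile over the 12 libraries was most like that of Gli3 were sought among 11844 genes by the root mean square difference of median-centred log2(TPM + 1) values. The 5 closest were Kcnd3 (0.26), a potassium channel subunit, Adamtsl1 (0.31), an extracellular matrix protein, Pikfyve (0.32), a lipid kinase, Etv3 (0.33), a transcription factor of the ETS family, and Dgkb (0.33), a diacylglycerol kinase. As they were picked for likeness to Gli3, their low Cd38+/+ values follow from the choice and are no separate result. Kcnd3, Adamtsl1 and Etv3, with Cd38+/+ means of 2.01, 0.873 and 3.77 TPM, also passed the level filter only through the other genotypes. Kcnd3 had 0.90, 0 and 5.12 TPM in Cd38+/+ replicates 1 to 3, against 3.01 to 7.69 TPM in the other 9. Dgkb, the most abundant of the 5, was at 11.52, 9.71 and 30.70 TPM in Cd38+/+ libraries and at 30.30 to 46.11 TPM in the others. Among the members, Smo was the nearest to Gli3, at rank 1072 (0.70), while Gli2 and Gli1 were at ranks 8552 and 10880 of the 11844.

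Beyond the core, 62 further pathway genes were followed in 6 roles, 50 of which passed the level filter in Cd38-/- against Cd38+/+. In that comparison 4 were called, all higher in Cd38-/-, which is 8% of those tested beside the 8.28% over all genes, and their median difference was 0.07. All the ligand transcripts were near 0, with Shh and Ihh below 0.4 TPM and Dhh at most 1.24 TPM in any library. Scube3 and Disp1, which help to release the ligands, were the most abundant of that role, with differences of 0.42 ± 0.39 (SE; limma q = 0.303) and -0.47 ± 0.23 (q = 0.139). The coreceptor Gas1 was at -0.42 ± 0.18 (q = 0.105) and the glypican Gpc6 at 0.38 ± 0.25 (q = 0.212), with none of 5 tested genes of this role called.

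The called genes belonged to the kinases that mark Gli proteins for processing, with 1 of 14 tested, and to the primary cilium, with 3 of 18 tested. Prkacb, a catalytic subunit of protein kinase A, which phosphorylates Gli proteins, was measured at 21.29, 15.85 and 29.52 TPM in Cd38+/+ libraries. It was at 57.85, 43.20 and 48.37 TPM in Cd38+/- libraries and between 34.53 and 65.54 TPM (median 44.4 TPM) in Cd38-/- libraries, with no overlap with Cd38+/+ in either genotype. Of the wider genes tested, 2 of 50 were separated in Cd38-/- against Cd38+/+ and 9 of 51 in Cd38+/- against Cd38+/+ (4% and 17.6%), beside 11.8% and 22.5% of all genes. The difference of Prkacb was 1.09 ± 0.24 in Cd38-/- (SE; limma q = 0.0221), a rise, and 1.16 ± 0.29 in Cd38+/- (q = 0.176), where the test did not pass. Prkar1a, a regulatory subunit of the same kinase, was at -0.0045 ± 0.13 in Cd38-/- (q = 0.558), and Spop, which marks Gli proteins for degradation, was at 0.06 ± 0.14 (q = 0.471).

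Among the cilium genes, Kif3b, a motor subunit that carries cargo into the cilium, was at 5.20, 1.02 and 1.61 TPM in Cd38+/+ libraries and at 5.63 to 9.14 TPM (median 6.88 TPM) in Cd38-/- libraries. It rose by 1.33 ± 0.40 (SE; limma q = 0.0469), but with means of 2.61 and 7.11 TPM it passed the level filter only through Cd38-/-, so that a difference was built into its being tested. Ift52 and Ift81, both parts of the transport complex of the cilium, rose by 0.79 ± 0.23 (q = 0.0417) and 0.62 ± 0.18 (q = 0.0449), with 1 or more overlapping libraries each. The most abundant cilium genes, Ift27 at 0.04 ± 0.12 (q = 0.501) and the motor partner Kif3a at -0.18 ± 0.16 (q = 0.293), did not pass. Markers of ependymal cells, which bear many cilia, gave sums of 2910, 3655 and 5692 TPM in Cd38+/+ replicates 1 to 3 and of 3819 to 5997 TPM in the Cd38-/- libraries, and their part in the cilium genes was not tested. These 4 calls were not stable. None remained without Cd38-/- replicate 1, 2, 5 or 6, only Prkacb remained without Cd38-/- replicate 3 or Cd38+/+ replicate 2, and 3 of the 4 remained without Cd38-/- replicate 4. Without Cd38+/+ replicate 1 the list had 10 calls, 3 of them among the 4, and without Cd38+/+ replicate 3 it had 15, with all 4 among them, where 15.5% and 26.5% of all genes tested were called.

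None of the 7 tested target genes of the pathway was called in Cd38-/- against Cd38+/+ by limma, and their median difference was -0.30. Ccnd2, a cyclin, was at 0.27 ± 0.37 (SE; limma q = 0.390) and the survival gene Bcl2 at -0.30 ± 0.17 (q = 0.180). None of 4 astrocyte genes known to depend on Hedgehog signalling was called, among them the glutamate transporter Slc1a3 at 0.24 ± 0.15 (q = 0.187) and the glutamate receptor subunit Gria1 at 0.38 ± 0.20 (q = 0.161). Beside 8.28% of all genes, 0 of 7 and 0 of 4 are no result. In Cd38+/-, Slc1a3 (0.50 ± 0.15, q = 0.184), Gria1 (0.74 ± 0.19, q = 0.176) and Kcnj10 (0.14 ± 0.21, q = 0.494) lay above all Cd38+/+ libraries, as Gria4 did not. In that comparison 22.5% of all genes were separated. Slc1a3 is also among the summed astrocyte markers. Over the whole list of 50 genes tested in Cd38-/- against Cd38+/+, 8 had an unadjusted p under 0.05, which is 16% beside 23.6% of all genes. In Cd38+/- against Cd38+/+ none of 51 tested genes was called (4 at an unadjusted p under 0.05, or 7.84% beside 13.5%), and in Cd38-/- against Cd38+/- none of 50 was (2 at an unadjusted p under 0.05, or 4% beside 11.2%).

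**Figure D4:**
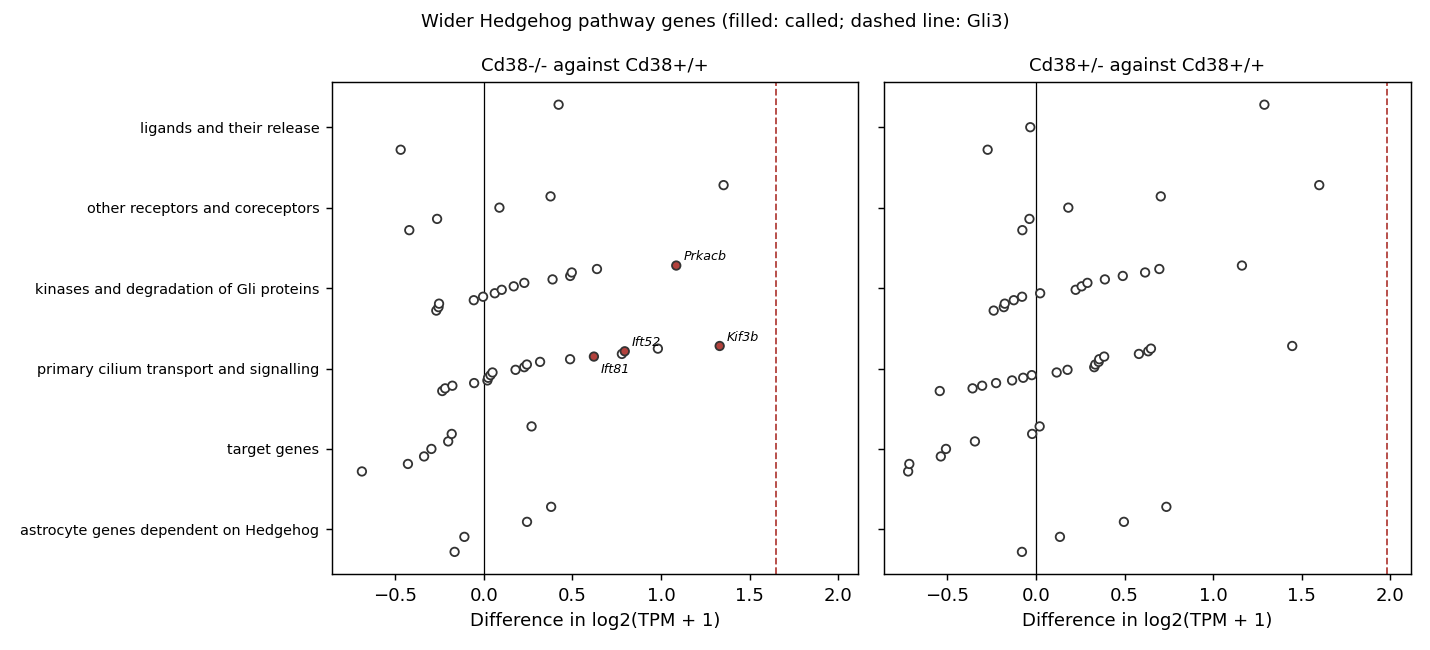
Difference in log2(TPM + 1) against Cd38+/+ (horizontal axis) for the tested genes of the wider pathway, grouped by role (vertical axis), in Cd38-/- (left) and Cd38+/- (right). Filled points mark the 4 called genes, Prkacb, Kif3b, Ift52 and Ift81, and the dashed line marks Gli3 at 1.65 and 1.98, above every point.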

How the data were processed

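RNA of 12 astrocyte samples was depleted of ribosomal RNA according to the study's methods (the labels name polyA RNA), amplified with the SMART-Seq v4 kit and sequenced. Per the labels, reads were trimmed with Trim Galore 0.6.4, aligned with STAR 2.7.1a to mm10 and quantified with RSEM 1.2.28, and the authors deposited TPM with 2 decimals; the annotation is not given in the sources used here. DESeq2 1.36.0 is also listed in the submitters' notes. TPM has a fixed total in each library (transcripts in every 1000000), so a gene can fall because others rose, and depth is not kept.

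Libraries were grouped by their titles. Values were tested as log2(TPM + 1) with limma 3.58.1 (moderated, with an intensity trend, two-sided) in R 4.3.3, among genes with a mean above 5 TPM in at least 1 compared genotype, with Storey q values over all genes tested. The filter and thresholds follow the study's methods. The fit was tested on simulated data. The study gives its group sizes in a way that reads as mice, but the labels do not tie libraries to animals; p-values measure the spread between libraries, which may then be technical. Gene positions are from GENCODE vM21 (GRCm38) and promoters from RefSeq.

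The members and lists were chosen with earlier results of these data known. Named were the 9 members, every called gene of the wider list, the 2 most abundant tested genes of each role, the 5 genes nearest to Gli3, Cd38 and marker lists as sums. The ligands and Cd38+/+ libraries that decide a call were named after their values were seen. Alternatives changed the pseudocount, filter, threshold, scaling, weights, replicate block, length and GC trend, and left out each library.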

Additional observations from a re-analysis of the deposited data

Results flagged for a closer look

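In the 6 Cd38-/- libraries, 14 measures were checked for a library far from the rest of its group, and 1 stood out. The smaller Cd38+/+ and Cd38+/- groups were not checked. Gli2 was 19.9% of the summed TPM of Gli1, Gli2 and Gli3 in Cd38-/- replicate 1, the highest of the 6 Cd38-/- libraries, at a gap to the next of 0.626 of the group's range. Chance flags about 1 in 20 groups.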

How the results depend on the processing

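Over 14 settings Gli3 was above Cd38+/+ by 1.12 to 1.87 (log2) in Cd38-/- and 1.38 to 2.22 in Cd38+/-. Changes of filter, threshold or test cannot move the value. With each library left out it was 1.32 to 2.22 and 1.65 to 2.55. The number of other members called stayed at 0 under all 14 settings in both comparisons with Cd38+/+, but in Cd38-/- against Cd38+/+ it ran from 0 to 2 when each library was left out (Boc without Cd38+/+ replicate 1, Smo and Gli1 without Cd38+/+ replicate 3, where 15.5% and 26.5% of all genes tested were called). In Cd38-/- against Cd38+/- it was 6 with library quality weights, where 27.0% of all genes tested were called. The number of wider pathway genes called in Cd38-/- against Cd38+/+, 4 as reported, was 9 without the filter (all 4 and 5 other genes), 8 with the length and GC trend removed (Prkacb and 7 other genes), 2 without the intensity trend, 1 with Benjamini-Hochberg adjustment, a log2 threshold of 1.2 or median-ratio scaling, and 0 with quality weights or the replicate block, with or without the length and GC trend removed. Leaving out each library gave 0 to 15, beside 0.633% to 26.5% of all genes tested. In Cd38+/- against Cd38+/+ that number was 1 without the filter (beside 3.85% of all genes tested) and 5 with all 12 libraries in 1 fit (12.4%). In Cd38-/- against Cd38+/- it was 15 with quality weights (27.0%) and 1 with the length and GC trend removed and the block (2.65%). Differences near 0 changed sign. Against Cd38+/+, Gli2 in Cd38-/- was -0.10 after quantile normalization, -0.073 with the length and GC trend removed and -0.18 with the block added, and -0.38 to 0.90 when libraries were left out. Ptch1 in Cd38-/- was -0.015 with median-ratio scaling, -0.071 with the block, -0.21 with the length and GC trend removed and -0.46 with both. Gli1 in Cd38+/- was -0.062 with quality weights, -0.061 with median-ratio scaling, -0.069 after quantile normalization, -0.24 with the length and GC trend removed, with or without the block, and -0.34 to 0.54 when libraries were left out. Sufu in Cd38+/- was -0.0086 after quantile normalization, -0.21 with the length and GC trend removed, with or without the block, and -0.29 to 0.56 when libraries were left out, and in Cd38-/- -0.57 to 0.28. The causes were not tested.

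Over all genes, the calls in Cd38-/- against Cd38+/+ (970) ran from 74 to 3119 when each library was left out, and were 2 with the block, 1 with quality weights, 1822 with all 12 libraries in 1 fit and 2283 without the filter. In Cd38+/- against Cd38+/+ they were 1464 with all 12 libraries and 663 without the filter. Of the calls in Cd38-/- against Cd38+/+, 77.5% were higher in Cd38-/-, but 58.5% with median-ratio scaling, 59.9% after quantile normalization and 30.9% of 1405 calls with the length and GC trend removed. The median of all genes, 0.15 as reported, was 0.03 with median-ratio scaling, 0.05 after quantile normalization and -0.06 with the trend removed. Same-numbered libraries correlated at -0.0947, -0.0408 and -0.0571 between Cd38+/+ and Cd38-/-, and at -0.317 to 0.501 over the other comparisons. Not all were best matches, and so few cannot decide whether numbers pair samples. The block result is not read. Read depth is unknown, so values near 0, as for Cdon and the ligands, cannot be given a counting error.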
